A study of Mus musculus with 6 samples.

Results

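Alanine, aspartate and glutamine carry much of the nitrogen that skeletal muscle takes up, exchanges and releases, and 9 genes of their handling were followed here in the tibialis anterior (TA) muscle of the mouse after knockdown of Yap. The genes were chosen by symbol: the alanine aminotransferases Gpt and Gpt2, the aspartate aminotransferases Got1 and Got2, the glutamine synthetase Glul, the glutamate dehydrogenase Glud1, the asparagine synthetase Asns and the amino acid transporters Slc38a2 and Slc1a5. All 9 were found among the 13226 genes of the deposited table, and all 9 passed the filter on low counts that left 13113 genes for testing. The muscles came from male C57BL/6 mice, treated at 8 weeks of age by injection into the muscle and sampled 7 days later, with 3 muscles in each of 2 groups. One group received AAV6:Yap-shRNA, an adeno-associated viral vector that carries a short hairpin RNA against Yap. The other received a control vector, given as AAV6:LacZ-shRNA for each sample, although the sample titles call it an empty vector. Control and Yap-shRNA muscles were contralateral, from 3 animals. The Yap hairpin was cloned into a plasmid with a CMV promoter, which is not specific to muscle fibres, and with eGFP, and the plasmid of the LacZ hairpin is not described further. Whole muscle was sequenced, so in these bulk samples a smaller number of cells of one type and less RNA per cell cannot be told apart.

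In working muscle, the amino groups of branched-chain amino acids pass to glutamate, and from there to pyruvate, giving alanine, or to ammonia and glutamate, giving glutamine. Alanine and glutamine leave the muscle through transporters of the plasma membrane and serve the liver, gut and kidney. The aspartate aminotransferases are also part of the malate-aspartate shuttle, which moves the electrons of cytosolic NADH into mitochondria. Many genes of amino acid synthesis and uptake, Asns and Slc38a2 among them, are induced by the transcription factor ATF4 when amino acids run short.

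Library totals ranged from 11987167 to 12710393 counts, which gave the members between 15 and 9194 reads per muscle. Values are given as CPM (counts per 1000000 counts of the library, with library sizes scaled by the TMM method of edgeR). The target of the hairpin, Yap1, stood at 71.2, 65.3 and 68.4 CPM in control muscles and at 31.96, 23.89 and 39.5 CPM in Yap-shRNA muscles, or 46.5% of control. Its log2 fold change was -1.10 (standard error 0.16), and the groups did not overlap. The quasi-likelihood test of edgeR gave an unadjusted p of 5.35e-05 and an adjusted p of 0.323 (Benjamini-Hochberg, over all genes tested). At the threshold of 0.05 this test therefore did not call the target of the hairpin itself. The 7 myofibre markers (Acta1, Ckm and others) summed to between 115400 and 140300 CPM in every muscle. Control 1 and Yap-shRNA 3 stood apart in markers of fibroblasts, and Yap-shRNA 3 alone in those of adipocytes. The 5 fibroblast markers summed to 1956 CPM in control 1 and 2227 CPM in Yap-shRNA 3, against 1002 to 1187 CPM in the other 4 muscles, and the 6 adipocyte markers reached 95.3 CPM in Yap-shRNA 3, against 14.5 to 26.9 CPM elsewhere. The 8 hepatocyte markers, which limb muscle should lack, summed to 450.5 CPM in control 3, to between 14.9 and 52.4 CPM in control 2, Yap-shRNA 1 and Yap-shRNA 2, and to 1.01 and 0.399 CPM in control 1 and Yap-shRNA 3. Without control 1, 936 genes had an unadjusted p under 0.05, against 211 with it.

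None of the 9 genes differed between Yap-shRNA and control muscles beyond the spread between muscles. By edgeR's quasi-likelihood test 0 of 9 had an adjusted p under 0.05 and 0 of 9 had an unadjusted p under 0.05, where the shares over all 13113 genes tested were 0% and 1.61%. DESeq2, the likelihood ratio test and limma-voom also called 0 of 9, and the smallest unadjusted p any of these 3 gave was 0.0495, for Slc1a5 by DESeq2. The 3 Yap-shRNA muscles overlapped the 3 control muscles for each of the 9 genes, while 5.27% of all genes tested showed no overlap. The median log2 fold change of the 9 genes was -0.0050, and that of all genes tested was -0.0025. Of the 9 genes, 5 had a log2 fold change within 0.05 of 0.

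**Figure D1:**
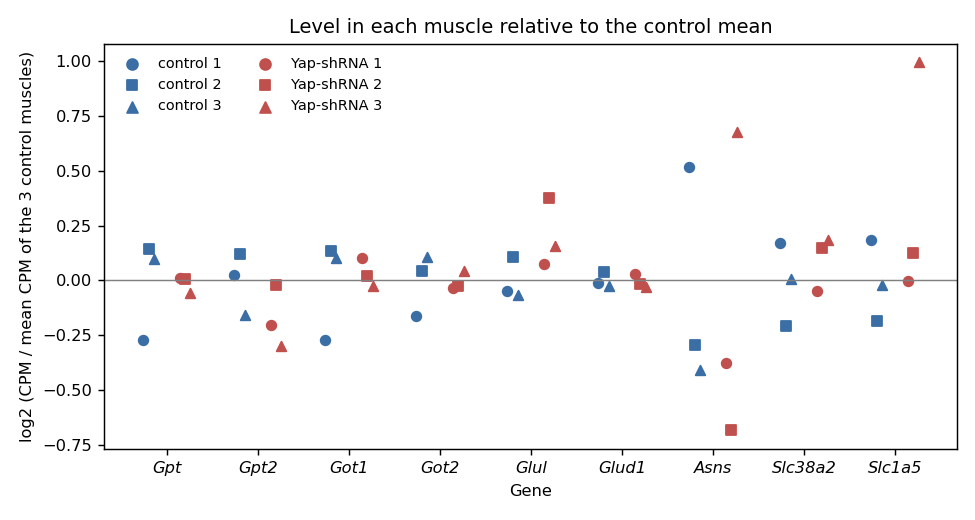
Level of each gene in each of the 6 muscles, as the log2 ratio of its CPM to the mean CPM of the 3 control muscles, with control muscles in blue, Yap-shRNA muscles in red and 1 symbol per replicate number. The groups overlap for all 9 genes, and the points farthest from 0 belong to Asns and Slc1a5.

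The 9 genes differed far more from one another than between groups when their levels were set per kilobase of the principal transcript. Got1 led with 338.3 ± 50.5 CPM per kilobase in control muscles (SD, n = 3). Gpt2 followed with 92.2 ± 8.94 CPM per kilobase and Got2 with 91.9 ± 8.68, and these neighbours overlapped over the 6 muscles. Next came Glud1 with 34.8 ± 0.821 and Glul with 32.5 ± 2.15 CPM per kilobase, which also overlapped. Slc38a2 had 19.9 ± 2.59, Gpt 16.7 ± 2.50 and Slc1a5 7.09 ± 0.913 CPM per kilobase, and in this stretch of the order each overlapped the next. Asns was last, with 0.917 ± 0.343 CPM per kilobase, below every value of Slc1a5. The order was the same with the length of all exons of a gene in place of the principal transcript.

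**Figure D2:**
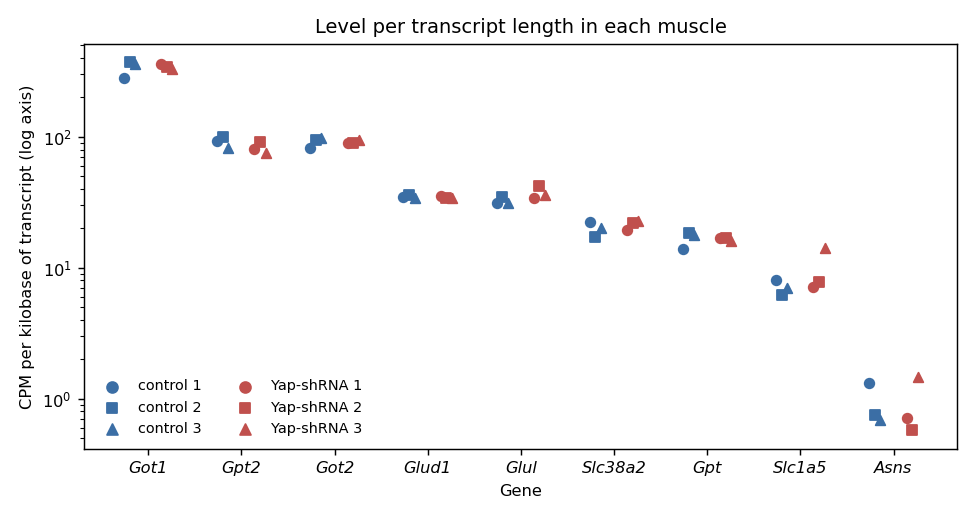
Level of each gene in each muscle in CPM per kilobase of the principal transcript, on a log axis, with genes ordered by the control mean. Got1 lies between 280.1 and 371.0 and Asns between 0.572 and 1.46 CPM per kilobase, with the other genes between them.

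The alanine aminotransferases exchange an amino group between glutamate and pyruvate. Gpt is the cytosolic form and Gpt2 the mitochondrial one. Gpt (ENSMUSG00000022546) lies on the plus strand of chromosome 15 of GRCm38, from 76695716 to 76699686, with a principal transcript of 11 exons, 1792 nucleotides and 496 amino acids. Gpt2 (ENSMUSG00000031700) lies on the plus strand of chromosome 8, from 85492576 to 85527560, with 12 exons, 3639 nucleotides and 522 amino acids. Their coding sequences were identical at 68.9% of the 1480 aligned nucleotides and shared no stretch of 50 nucleotides, so a read of that length can be told apart between them. Gpt2 had 341.1, 365.2 and 300.8 CPM in control muscles and 292.0, 331.2 and 272.6 CPM in Yap-shRNA muscles. The lowest values were those of Yap-shRNA 3 and Yap-shRNA 1, but Yap-shRNA 2 lay above control 3, so the groups overlapped. For Gpt2 the log2 fold change was -0.17 (standard error 0.11), with an interval at 95% from -0.42 to 0.085. With each muscle left out in turn it was between -0.25 and -0.10. Gpt had 24.7, 33.0 and 31.9 CPM in control muscles and 30.1, 30.0 and 28.7 CPM in Yap-shRNA muscles. All 3 Yap-shRNA muscles lay between control 1, the lowest of the 6, and the other controls. Its log2 fold change was -0.012 (standard error 0.12), with an interval from -0.29 to 0.26. Gpt is also an enzyme of liver, and the part of the hepatocyte transcripts in its values was not tested.

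Gpt2 took most of the reads of the pair. Its share of the reads on Gpt and Gpt2 was 93.2, 91.7 and 90.4% in the controls, against 90.7, 91.7 and 90.5% with Yap-shRNA. The difference of the means was -0.85 percentage points (exact permutation test, two-sided, p = 0.60, where 3 against 3 muscles cannot go below 0.10). Per kilobase of transcript, which allows for the longer Gpt2 transcript, its share was between 82.3 and 87.2% in the 6 muscles.

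The aspartate aminotransferases exchange an amino group between glutamate and oxaloacetate, Got1 in the cytosol and Got2 in mitochondria. Got1 (ENSMUSG00000025190) lies on the minus strand of chromosome 19, from 43499752 to 43524605, with 9 exons, 2058 nucleotides and 413 amino acids. Got2 (ENSMUSG00000031672) lies on the minus strand of chromosome 8, from 95864134 to 95888547, with 10 exons, 2530 nucleotides and 430 amino acids. Their coding sequences were identical at 63.4% of the 1170 aligned nucleotides and likewise shared no stretch of 50. Got1 had 576.4, 763.5 and 748.5 CPM in control muscles and 747.8, 706.2 and 684.1 CPM in Yap-shRNA muscles. Control 1 was the lowest of the 6 by a wide margin, and the Yap-shRNA muscles fell between it and the other controls. For Got1 the log2 fold change was 0.034 (standard error 0.12), with an interval from -0.24 to 0.31, and without control 1 it was -0.085. Got2 had 207.9, 239.2 and 250.2 CPM in control muscles and 226.9, 228.2 and 239.7 CPM in Yap-shRNA muscles. Its log2 fold change was -0.0050 (standard error 0.10), with an interval from -0.23 to 0.22. Control 1 was again the lowest muscle, as it was for 3 of the 9 genes, namely Gpt, Got1 and Got2.

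The share of Got1 in the reads on Got1 and Got2 was 73.5, 76.1 and 74.9% in the controls, against 76.7, 75.6 and 74.1% with Yap-shRNA. The highest value was that of Yap-shRNA 1 and the lowest that of control 1, with the other 4 muscles between them. The difference of the means was 0.59 percentage points (exact permutation test, two-sided, p = 0.70). Part of the reads of Got2 may be counted elsewhere, because the processed pseudogene Got2-ps1 holds 801 of the 2481 windows of 50 nucleotides in the Got2 transcript. Got2-ps1 had 21 to 40 reads in control muscles and 22 to 43 in Yap-shRNA muscles, a small part of the reads on Got2. How reads that match both genes were counted is not given, so these numbers do not show how many reads Got2 lost.

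Of the 9 genes, 7 had a promoter window in the RefSeq table of GRCm38.p6, which spans 250 bases before to 50 bases after the start of transcription. Gpt and Slc1a5 had none there. The windows were searched on both strands for TGATGNAA, the core of the amino acid response element that ATF4 binds, whose reverse is TTNCATCA, and for GGAATG, the motif of the TEAD factors through which Yap reaches DNA, whose reverse is CATTCC. TGATGNAA was found in the windows of Asns and Got1, and 3.97% of all 32851 windows held it. GGAATG was found in none of the 7 windows, and 14.7% of all windows held it. The 2 windows that hold the amino acid response motif are shown, with the motif in capitals. The Asns window is chr6:7693160-7693459 on the minus strand, where the motif starts at position -23 from the RefSeq start of transcription. The GENCODE gene model of Asns begins farther upstream, at 7693254, and by that model the motif lies inside the gene. The Got1 window is chr19:43524556-43524855 on the minus strand, where its reverse starts at position -102. These are matches of letters in a window, and binding was not measured.
Asns: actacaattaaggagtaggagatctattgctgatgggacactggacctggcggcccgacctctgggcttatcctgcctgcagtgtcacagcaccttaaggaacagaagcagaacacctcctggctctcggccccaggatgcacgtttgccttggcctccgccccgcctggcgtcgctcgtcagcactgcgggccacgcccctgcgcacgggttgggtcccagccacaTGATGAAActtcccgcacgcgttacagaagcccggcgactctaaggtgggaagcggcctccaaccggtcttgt
Got1: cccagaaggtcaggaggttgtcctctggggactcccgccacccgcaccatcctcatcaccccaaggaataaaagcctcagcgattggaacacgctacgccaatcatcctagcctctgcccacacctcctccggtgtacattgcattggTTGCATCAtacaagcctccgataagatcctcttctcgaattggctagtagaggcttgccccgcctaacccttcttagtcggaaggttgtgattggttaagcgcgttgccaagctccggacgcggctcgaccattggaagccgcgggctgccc

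Glul makes glutamine from glutamate and ammonia. The gene (ENSMUSG00000026473) lies on the plus strand of chromosome 1, from 153899944 to 153909723, with 7 exons, 2792 nucleotides and 373 amino acids. Glul had 87.8, 97.6 and 86.7 CPM in control muscles and 95.5, 117.6 and 101.0 CPM in Yap-shRNA muscles. Yap-shRNA 2 and Yap-shRNA 3 lay above all 3 controls, and Yap-shRNA 1 lay below control 2, so the groups overlapped by 1 muscle. The log2 fold change was 0.21 (standard error 0.11), with an interval from -0.036 to 0.45 and an unadjusted p of 0.0871 by the quasi-likelihood test, the smallest of the 9 genes. With each muscle left out in turn it was between 0.11 and 0.27. Some uncertainty attaches to the counts of Glul. The processed pseudogene Glns-ps1 shares 309 of the 2743 windows of 50 nucleotides in the Glul transcript and had 3.88 to 5.85% as many reads as Glul. Teddm2 overlaps exons of Glul on the opposite strand and had 2.65 to 4.25% as many, and no strand setting of the counting is given in the sources used here.

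Glud1 releases ammonia from glutamate in mitochondria and gives 2-oxoglutarate, a metabolite of the TCA cycle. The gene (ENSMUSG00000021794) lies on the plus strand of chromosome 14, from 34310727 to 34345265, with 13 exons, 3390 nucleotides and 558 amino acids. It was the steadiest of the 9 genes, with 116.8, 121.1 and 115.8 CPM in control muscles and 120.3, 116.5 and 115.6 CPM in Yap-shRNA muscles. Its highest muscle was 1.05 times its lowest, and its coefficients of variation of 2.36% in control and 2.11% in Yap-shRNA muscles were below the 2.62% that counting error alone gives at its mean read number. On the log2 scale the difference was -0.0053 (standard error 0.086), with an interval from -0.20 to 0.19. The pseudogene Glud-ps had 3.49 to 4.76% as many reads as Glud1.

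Asns makes asparagine from aspartate, with glutamine as the donor of the amino group. The gene (ENSMUSG00000029752) lies on the minus strand of chromosome 6, from 7675169 to 7693254, with 12 exons, 2016 nucleotides and 561 amino acids. Few reads fell on it. Control muscles had 34, 18 and 17 reads and Yap-shRNA muscles 17, 15 and 37 reads, or 2.65, 1.51 and 1.40 CPM against 1.43, 1.15 and 2.95 CPM. The high muscles were control 1 and Yap-shRNA 3, 1 in each group. Exact Poisson intervals at 95% cover counting error only. They ran from 26.1 to 51.0 reads for Yap-shRNA 3 and from 8.40 to 24.7 reads for Yap-shRNA 2, without overlap. These were the highest and the lowest muscle of their group, picked from the values, so the lack of overlap is a description and not a test. Between groups the log2 fold change was -0.011 (standard error 0.41), with an interval from -0.93 to 0.90. It was 0.34 without control 1 and -0.53 without Yap-shRNA 3, and neither had an adjusted p under 0.05 by the quasi-likelihood test.

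Asns varied most of the 9 genes over the 6 muscles (SD of 0.54 on the log2 scale). The genes nearest to it in profile were therefore sought among all genes tested, by the root mean square difference of log2 CPM after each gene was centred on its own mean. The 5 nearest were Pdgfrl, Ctsk, Gdf11, Cpxm1 and Aoc3, at differences of 0.068, 0.11, 0.11, 0.12 and 0.14 over the 6 muscles. Pdgfrl, the nearest, had 6.15 CPM in control 1 and 7.10 CPM in Yap-shRNA 3 against 2.69 to 3.37 CPM in the other 4 muscles. Ctsk, a collagen-degrading protease, had 14.9 and 14.3 CPM in the same 2 muscles against 7.30 to 8.78 CPM. The 5 genes were chosen for likeness to Asns, so their high values in those 2 muscles follow from the choice. Counting error alone gives Asns a coefficient of variation of 20.85% at its mean read number, so part of the profile that was matched may be counting error. Control 1 and Yap-shRNA 3 were also the muscles with the highest sums of the fibroblast markers. The part of those cells in the values of Asns was not tested.

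Slc1a5 encodes a sodium-dependent exchanger of glutamine and other small neutral amino acids. The gene (ENSMUSG00000001918) lies on the plus strand of chromosome 7, from 16781340 to 16798274, with 9 exons, 2764 nucleotides and 555 amino acids. It had 22.3, 17.2 and 19.3 CPM in control muscles and 19.5, 21.4 and 39.0 CPM in Yap-shRNA muscles. Yap-shRNA 3 stood alone, and the other 2 Yap-shRNA muscles lay within the range of the controls. The log2 fold change was 0.44 (standard error 0.24), the largest of the 9 genes, with an interval from -0.099 to 0.98 and an unadjusted p of 0.0982 by the quasi-likelihood test. Without Yap-shRNA 3 it was 0.061. That muscle also had the highest sum of adipocyte markers (95.3 CPM against 14.5 to 26.9 CPM) and of fibroblast markers, and the part of these cells in the value of Slc1a5 was not tested.

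**Figure D3:**
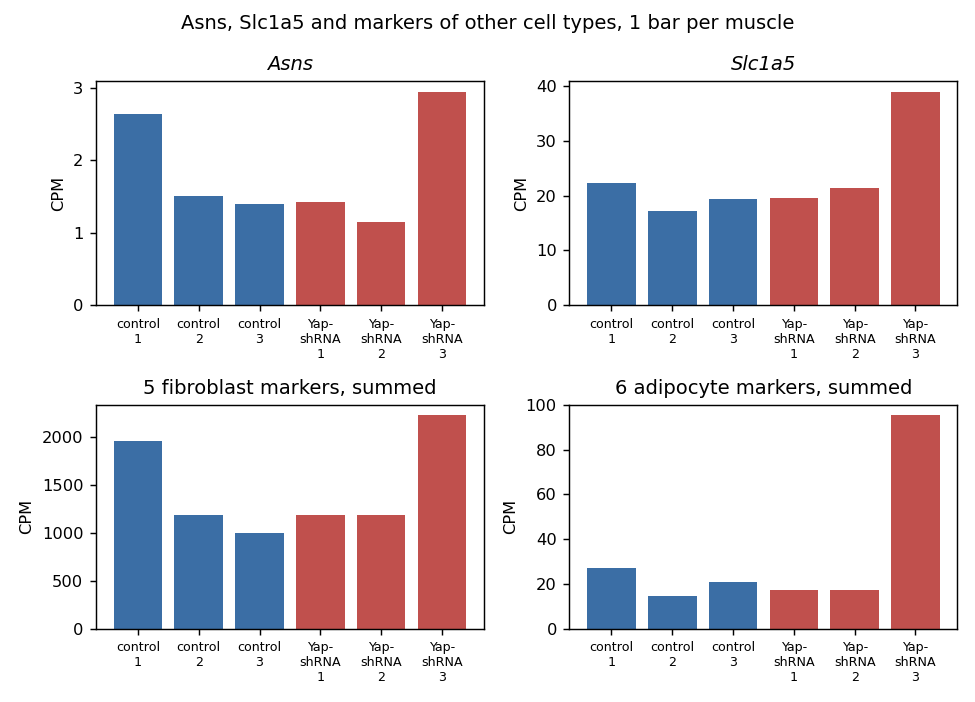
CPM of Asns and Slc1a5 and the summed CPM of 5 fibroblast and 6 adipocyte markers, 1 bar per muscle, with control muscles in blue and Yap-shRNA muscles in red. Asns and the fibroblast markers are highest in control 1 and Yap-shRNA 3, and Slc1a5 and the adipocyte markers are highest in Yap-shRNA 3 alone.

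Slc38a2 encodes SNAT2, a sodium-coupled carrier that brings alanine, glutamine and other small neutral amino acids into the fibre. The gene (ENSMUSG00000022462) lies on the minus strand of chromosome 15, from 96687392 to 96699730, with 16 exons and 4660 nucleotides. It had 104.7, 80.6 and 93.5 CPM in control muscles and 89.8, 102.9 and 105.6 CPM in Yap-shRNA muscles. Control 2 was the lowest and Yap-shRNA 3 the highest, and 2 of the 3 Yap-shRNA muscles lay within the range of the controls. The log2 fold change was 0.098 (standard error 0.12), with an interval from -0.17 to 0.36. It was 0.0047 without control 2, 0.052 without Yap-shRNA 3, 0.19 without control 1 and 0.17 without Yap-shRNA 1.

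Read as folds, the interval at 95% of 7 of the 9 genes lay wholly within a 1.5-fold difference in either direction. The narrowest was that of Glud1, from 0.872 to 1.14 times control, and those of Got1 and Got2 ran from 0.848 to 1.24 and from 0.853 to 1.16 times control. For Asns the interval ran from 0.527 to 1.87 times control and for Slc1a5 from 0.934 to 1.98 times, so for these 2 genes the interval did not leave out a difference of that size.

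**Figure D4:**
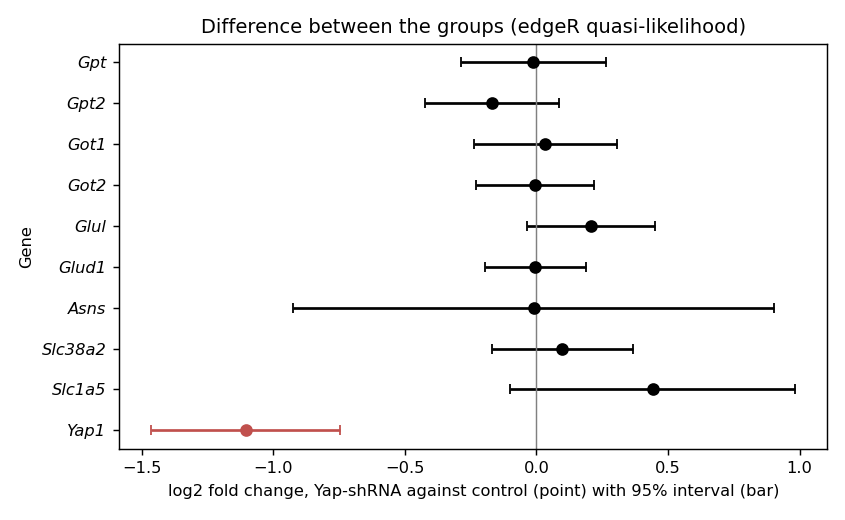
Log2 fold change of Yap-shRNA against control muscles for the 9 genes (black) and for Yap1 (red), each point with its interval at 95% from edgeR's quasi-likelihood fit. The intervals of the 9 genes all include 0, and that of Yap1 runs from -1.46 to -0.75.

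Around these 9 genes, 4 lists cover the wider pathway. Of 34 listed other enzymes of these amino acids and of their neighbours arginine, proline and glutathione, 26 were tested and 0 were called higher or lower by the quasi-likelihood test, with 0 at an unadjusted p under 0.05 and a median log2 fold change of 0.023. The 2 with the smallest unadjusted p were Cad, the first enzyme of pyrimidine synthesis, which uses glutamine, at a log2 fold change of 0.24 (standard error 0.15, and 0.13 without Yap-shRNA 2), and Asl, which releases arginine and fumarate from argininosuccinate, at -0.36 (standard error 0.23). Asl had 10.9 CPM in control 3, its highest muscle and the one with the most hepatocyte transcripts, and 5.76 to 8.53 CPM in the other 5 muscles. Without control 3 the log2 fold change of Asl was -0.13, and without control 1 it was -0.57. The part of those transcripts in Asl was not tested. The next list held 12 genes, namely those of the malate-aspartate shuttle and of mitochondrial carriers, with pyruvate carboxylase (Pcx) added. Of these 12 genes, 10 were tested and 0 were called, with 0 at an unadjusted p under 0.05 and a median of -0.030. Slc25a1, the citrate carrier, had the smallest unadjusted p at a log2 fold change of 0.49 (standard error 0.29), with 8.85 CPM in Yap-shRNA 3 and 3.77 to 5.91 CPM in the other 5 muscles, and without Yap-shRNA 3 it was 0.14. Mpc1, a subunit of the mitochondrial pyruvate carrier, was next at 0.23 (standard error 0.16), and at 0.083 without control 2, its lowest muscle, and 0.36 without control 3.

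Of 25 other amino acid transporters, 23 were tested and 0 were called, with 1 at an unadjusted p under 0.05 and a median log2 fold change of 0.064. That gene was Slc1a3, a glutamate transporter, with 15, 9 and 17 reads in control and 18, 20 and 43 reads in Yap-shRNA muscles. It did not overlap between groups, its log2 fold change was 0.96 (standard error 0.41), and edgeR's quasi-likelihood test gave an adjusted p of 1.0. As for Slc1a5, Yap-shRNA 3 was its highest muscle, and without it the log2 fold change was 0.46. In this list 1 of 23 genes did not overlap between groups, against 5.27% of all genes tested. The share of all genes tested with an unadjusted p under 0.05 was 1.61%. Slc38a3, a carrier of glutamine, histidine and asparagine, had 133.0, 115.4 and 136.2 CPM in control muscles and 124.2, 106.9 and 101.9 CPM in Yap-shRNA muscles, at -0.21 (standard error 0.11).

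Of 29 genes of the amino acid response, 26 were tested and 0 were called, with 1 at an unadjusted p under 0.05 and a median of 0.022. Psat1, an enzyme of serine synthesis that takes its amino group from glutamate, had 20, 21 and 18 reads in the controls, against 25, 39 and 48 reads with Yap-shRNA. All 3 Yap-shRNA muscles lay above all 3 controls. Its log2 fold change was 0.90 (standard error 0.28), at an unadjusted p of 0.0102 and an adjusted p of 1.0 by the quasi-likelihood test. Sesn2, a sensor of leucine that restrains mTORC1, had 4.05, 4.02 and 3.78 CPM in control and 4.95, 5.15 and 4.79 CPM in Yap-shRNA muscles. Its log2 fold change was 0.33 (standard error 0.17), and it also did not overlap between groups. In this list 3 of 26 genes lay wholly above the controls and 0 wholly below, where the shares over all genes tested were 2.54% and 2.73%. Asns and Slc38a2, which respond to ATF4 as well, overlapped between groups.

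**Figure D5:**
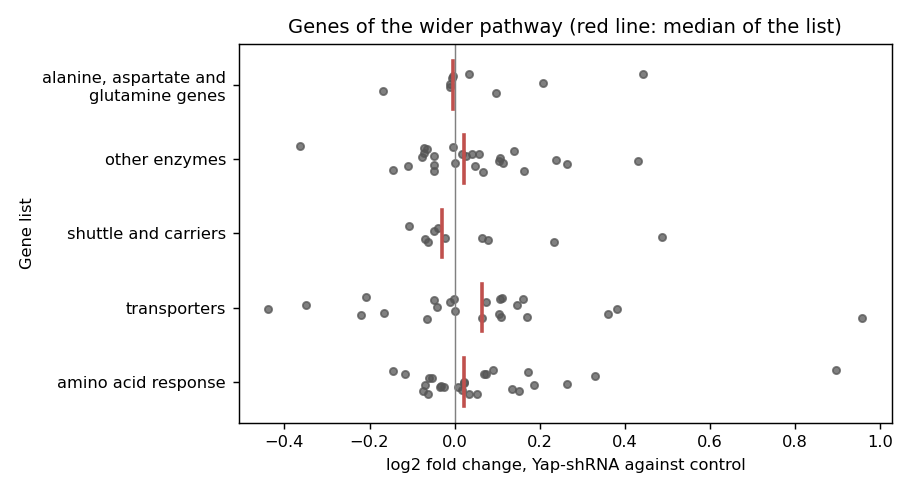
Log2 fold change of Yap-shRNA against control muscles for each tested gene of the 9 alanine, aspartate and glutamine genes and of the 4 lists of the wider pathway, 1 point per gene, with the median of each list as a red line. The medians lie between -0.030 and 0.064, and the farthest points to the right are Slc1a3 at 0.96 and Psat1 at 0.90.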

How the data were processed

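Polyadenylated RNA of 6 whole TA muscles was sequenced, and the authors deposited raw read counts per gene, not normalised. The submitters' processing notes name bcl2fastq 2.20.0.422 and the build GRCm38, and the aligner, counter and strand setting are not given in the sources used here. No gene of the table has fewer than 60 reads in all. In R 4.3.3, edgeR 4.0.16 served for the filter (filterByExpr), TMM scaling and a quasi-likelihood fit on group alone, with Benjamini-Hochberg adjustment over 13113 genes and a threshold of 0.05. Each standard error was taken back from the fold change and its F statistic, and intervals use the total degrees of freedom of the fit. The tests were checked on simulated data. Log2 CPM used a prior count of 0.5. Gene models and transcripts came from GENCODE M21 (GRCm38), and promoter sequences from RefSeq (GRCm38.p6). Within groups, no pair of libraries repeated another: their chi-square over its degrees of freedom was 7.62 to 21.4.

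The members and lists were chosen with earlier results of these data known. Besides the 9 members and Yap1, the genes named were the 2 of smallest unadjusted p in each pathway list and the 5 nearest in profile to the most variable member. The markers were 7 of myofibres, 7 of slow or oxidative fibres, 10 of macrophages, 6 of adipocytes, 5 of fibroblasts, 5 of endothelium, 8 of hepatocytes and 5 of Schwann cells. Alternatives were DESeq2 1.42.0, the likelihood ratio test, limma-voom (limma 3.58.1), upper-quartile scaling, other count filters, a replicate block and leaving out muscles. The description of the study pairs contralateral muscles within animals, but no label ties replicate numbers to animals.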

Additional observations from a re-analysis of the deposited data

How the results depend on the processing

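Leaving out control 1 and Yap-shRNA 3 together was chosen after seeing the data. No setting called any of the 9 genes or any gene of the pathway lists. By the quasi-likelihood test the unadjusted p of Slc1a5 was 0.0325 without Yap-shRNA 1, and that of Glul was 0.0485 without control 2. Over all genes the quasi-likelihood test called 0, DESeq2 and the likelihood ratio test 5 each, and the fit without control 1 and Yap-shRNA 3 called 4. With each muscle left out in turn it called from 0 to 1. Of 126 combinations of member and setting, 109 kept direction and call and 17 changed sign. The log2 fold change of Gpt was 0.00044 with limma-voom and that of Got1 -0.056 without control 1 and Yap-shRNA 3. With each muscle left out in turn it ranged from -0.13 to 0.064 for Gpt, -0.085 to 0.11 for Got1, -0.079 to 0.051 for Got2, -0.022 to 0.014 for Glud1, -0.53 to 0.34 for Asns, 0.0047 to 0.19 for Slc38a2 and 0.061 to 0.62 for Slc1a5. The difference in the share of Got1 ranged from -0.097 to 1.29 percentage points, that of Gpt2 from -1.54 to -0.13 (0.11 without control 1 and Yap-shRNA 3). The causes were not tested. With the replicate block, which pairs muscles of the same number, 0 genes were called, the log2 fold change of Slc1a5 was 0.39, that of Glul 0.20 and that of Gpt2 -0.17, and it changed no call. Across genes, muscles that share a number deviated from their groups with correlations of -0.10, 0.24 and -0.33, so the numbers alone do not show pairing. Yap1 passed the threshold with DESeq2, the likelihood ratio test and the fit without control 1 and Yap-shRNA 3 only. Precision was limited most for Asns, with 15 to 37 reads per muscle.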

Other observations

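The other marker lists did not part the groups. The 10 macrophage markers summed to 90.9 to 218.9 CPM in the controls, against 155.3 to 200.2 CPM with Yap-shRNA, the 5 endothelial markers to 299.7 to 368.8 and 319.4 to 346.3 CPM, and the 5 Schwann cell markers to 88.9 to 151.8 and 110.8 to 137.0 CPM. The 7 markers of slow or oxidative fibres, in which enzymes of mitochondria are more abundant, summed to 344.9 to 463.1 CPM in the controls, against 350.2 to 420.6 CPM with Yap-shRNA. By edgeR's quasi-likelihood test 0 genes of any marker list had an adjusted p under 0.05. At an unadjusted p under 0.05 there were 5 of the 6 hepatocyte markers tested and 1 of the 7 slow or oxidative fibre markers. The share over all genes tested was 1.61%. The hepatocyte markers had a median log2 fold change of -3.17, and their sum was 450.5 CPM in control 3 against 0.399 to 52.4 CPM in the other muscles. Of the 8 hepatocyte markers, Apoa1, Ttr, Fgb, Ahsg, Cps1 and Serpina1a had 0 reads in Yap-shRNA 3, and Alb and Apoa2 had reads there. In control 1 Apoa1, Fgb and Serpina1a had 0 reads, and in Yap-shRNA 1 Serpina1a had 0 reads.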
